A study of Mus musculus with 6 samples.

Results

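The p200 genes are a group of interferon-inducible genes that lie next to each other on mouse chromosome 1. The members described here are Aim2, Ifi203, Ifi204, Ifi206, Ifi207, Ifi208, Ifi209, Ifi213, Ifi214 and Mndal, 10 of the 25654 genes with a value in the deposited files. The 10 members were chosen on the same age contrast that is described below, with its values known, so the difference between the age groups in these genes is a description and carries no test. The members span chromosome 1 from 173350879 to 173942672 in the GRCm38 build.

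The p200 proteins carry a HIN domain, which binds DNA, and most join it to a pyrin domain, a fold through which proteins assemble with each other. Several p200 genes are induced by type I interferon, and their proteins are known for sensing DNA and for restraining cell growth. AIM2, the best known of the family, binds double-stranded DNA in the cytosol and recruits the adaptor ASC and the protease caspase-1 into an inflammasome, the complex that matures interleukin 1 and can kill the cell. In T cells AIM2 has also been described in roles outside the inflammasome.

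RNA was measured in CD8 T cells from the spleens of wild-type female C57BL/6 mice, 3 libraries from mice of 6 weeks (Young) and 3 from mice of around 65 weeks (Aged). The cells were purified with a commercial CD8 T cell isolation kit and stimulated with plate-bound anti-TCR-β (3 µg/ml) and anti-CD28 (1 µg/ml) for 2 days with interleukin 2 (10 ng/ml), a T cell growth factor. They were then kept in interleukin 2 for 5 more days, 7 days in total, so every value describes cells after culture and not cells as they were in the mouse. Libraries were made from polyadenylated 3′ ends (QuantSeq), so a value does not grow with transcript length and levels can be set side by side between genes.

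Totals ran from 1952552 to 2785915 reads per library, and 1 read was worth 0.359 to 0.512 CPM (reads scaled to a common library total). A library with no read of a gene allows up to 3 reads, or 1.08 to 1.54 CPM, and this limit covers counting error only. The labels call the libraries biological replicates without saying that each came from a separate mouse, so every SD and p-value measures the spread between these libraries. Of 10511 genes that averaged 1 CPM or more over the 6 libraries, 12.5% were called lower and 16.2% higher in Aged libraries by limma with Benjamini-Hochberg adjustment at 0.05. In 18.3% of them every Aged library lay below every Young library. The 10 CD8 T cell markers were all detected, with a summed level of 2935 to 3055 CPM in Young and 2345 to 2523 CPM in Aged libraries, and 6 of the 10 were called lower.

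Promoter sequences are shown first because 8 of the members with an entry share a stretch of sequence just before the gene start. They are RefSeq sequences of the GRCm38.p6 build, from a table of 250 bases before to 50 bases after each gene start, which holds 9 of the 10 members and has no entry for Ifi204. For Aim2 and Mndal the starts in the table lie inside the annotated spans given below. The outer starts of these spans have no entry under these genes. The stretch is built around a core of the interferon-stimulated response element, the DNA motif that interferon-activated transcription factors bind, written GAAANNGAAA and searched on both strands. Each line gives 60 bases, 5′ to 3′ on the gene's own strand, and the capitals mark the decamer at the position of the core.

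Ifi206 (chr1:173491329-173491388, minus strand): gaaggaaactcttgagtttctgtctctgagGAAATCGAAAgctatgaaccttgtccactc
Ifi208 (chr1:173673577-173673636, plus strand): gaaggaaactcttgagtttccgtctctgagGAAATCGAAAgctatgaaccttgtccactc
Ifi213 (chr1:173599316-173599375, minus strand): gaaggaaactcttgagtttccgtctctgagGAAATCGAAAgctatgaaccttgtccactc
Ifi214 (chr1:173536007-173536066, minus strand): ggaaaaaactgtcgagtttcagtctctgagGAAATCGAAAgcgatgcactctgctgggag
Ifi209 (chr1:173630750-173630809, plus strand): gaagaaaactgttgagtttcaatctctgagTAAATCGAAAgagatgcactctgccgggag
Ifi207 (chr1:173741821-173741880, minus strand): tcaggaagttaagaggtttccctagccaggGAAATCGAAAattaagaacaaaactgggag
Mndal (chr1:173880194-173880253, minus strand): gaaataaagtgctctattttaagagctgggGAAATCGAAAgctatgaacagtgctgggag
Ifi203 (chr1:173942498-173942557, minus strand): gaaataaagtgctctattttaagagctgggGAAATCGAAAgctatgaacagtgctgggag

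The core GAAANNGAAA was found in at least 1 promoter of 7 of the 9 members in the table, against 3.99% of all 27025 genes in it. All 7 held the same letters, GAAATCGAAA, on the gene's own strand. Mndal and Ifi203 each have another promoter in the table without the decamer. That of Ifi203 held no core, and that of Mndal held it only on the other strand, as TTTCTCTTTC. The decamer began 35 bases before the gene start in Ifi203, 36 in Mndal, 40 in Ifi206, 41 in Ifi207, 58 in Ifi208, 73 in Ifi213 and 79 in Ifi214. This decamer was chosen after the promoters had been seen. It stood in 16 of the 27025 genes of the table, or 0.0592%, of which 9 were not members.

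Ifi209 differed from the decamer by 1 base, G1T, with positions counted from 1 at the 5′ end of the decamer and the shared base written first. The 60 bases of Ifi208 and Ifi213 were identical, as were those of Mndal and Ifi203. Those of Ifi206 and Ifi208 were 98.3% identical, those of Ifi209 and Ifi214 88.3%, and the least alike were Ifi206 and Ifi207 at 50% of positions.

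Aim2 held no match to the core in its window, which lies at a start inside its annotated span and covers no other start. Its closest decamer had 3 substitutions (A3C, T5A and C6A), and the 120 bases before its start are shown for comparison with the lines above. Ifi209, which is 1 base away from the decamer, was lower in Aged cells and Aim2 was not. Whether the core has a part in the difference between the age groups was not tested.

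Aim2 (chr1:173420484-173420603, plus strand): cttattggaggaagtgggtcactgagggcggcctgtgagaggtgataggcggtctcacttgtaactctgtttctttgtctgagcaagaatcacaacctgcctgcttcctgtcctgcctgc

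The gamma-activated site, a motif of interferon-γ responses written TTCNNNGAA and searched on both strands, was found in 0 of the 9 members and in 9.55% of all genes in the table. The letters of a TATA box, TATAAA on the gene's own strand, stood in Ifi206, Ifi208 and Ifi213 and in 9.77% of all genes in the table. They began 160, 178 and 193 bases before the gene start in these 3 members, farther away than the decamer. A match is a description of letters and not a bound site, and a window without a match says nothing about the factor.

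Aim2 (ENSMUSG00000037860, chromosome 1, 173350879 to 173466040, plus strand), the inflammasome sensor, was measured at 73.9, 67.8 and 74.9 CPM in Young replicates 1 to 3 and at 79.4, 79.0 and 96.9 CPM in Aged replicates 1 to 3. All 3 Aged libraries lay above all 3 Young libraries, by a margin that was small beside the spread among the Aged ones. The means were 72.2 ± 3.83 CPM in the Young and 85.1 ± 10.3 CPM in the Aged libraries (SD, n = 3 each). The difference was 0.23 ± 0.11 (SE) on the log2(CPM + 1) scale, Aged minus Young, and Aim2 was not among the genes called. Its span overlaps that of Cadm3, which had mean levels of 0.128 CPM (Young) and 0.171 CPM (Aged). In bulk RNA, here and below, more or fewer cells that express a gene and more or less of its RNA per cell cannot be told apart.

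**Figure D1:**
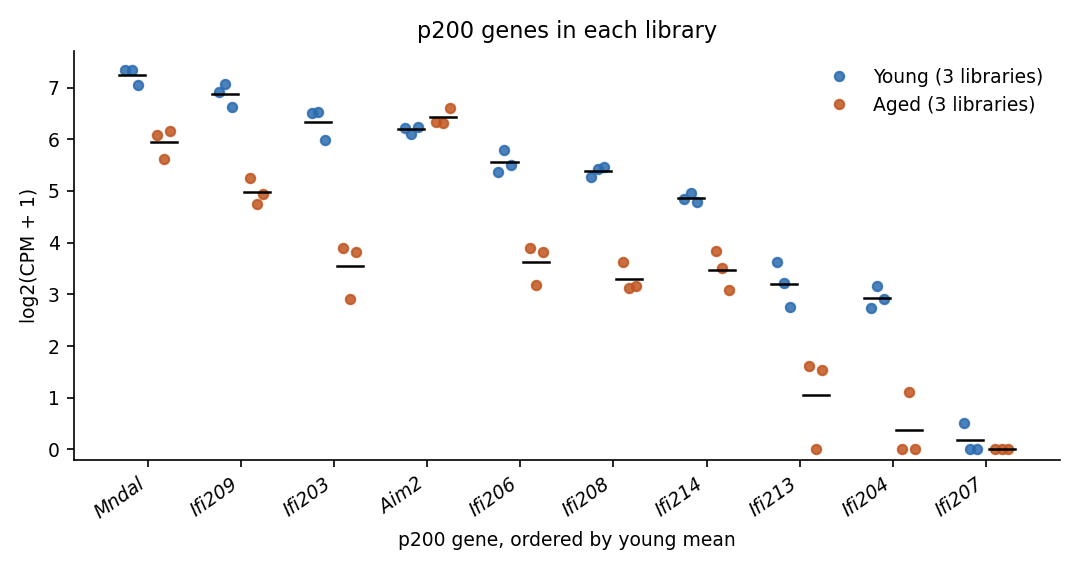
The level of each p200 gene is plotted as log2(CPM + 1) in each of the 3 Young and 3 Aged libraries, with a bar at the group mean, ordered by the Young mean. Aged points lie below Young points in 8 genes, from Mndal to Ifi204, and above them in Aim2, while Ifi207 had 1 read in all.

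Mndal (ENSMUSG00000090272, 173849126 to 173942491, minus strand), a p200 gene named for its likeness to human MNDA, had the highest level of the group in young cells. It stood at 160, 162 and 131 CPM in the Young and at 66.6, 47.9 and 70.1 CPM in the Aged libraries. The lowest Young library was well above the highest Aged one. Mean levels were 151 ± 17 and 61.5 ± 11.9 CPM (SD, n = 3 each), 2.45-fold lower in Aged cells, with a log2 difference of -1.29 ± 0.13 (SE).

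Ifi203 (ENSMUSG00000039997, 173920407 to 173942672, minus strand) overlaps the first exons of a Mndal transcript on the same strand, so that reads in the shared part could go to either gene. The libraries were made from 3′ ends, and the 3′ end of Mndal lies outside the span of Ifi203. How many reads fell in the shared part was not measured. The end of 1 of its transcripts, Ifi203-205, was 87.1% identical to that of Ifi207 over 232 bases. Its levels were 89.6, 91.5 and 62.2 CPM in the Young and 13.8, 6.52 and 13.2 CPM in the Aged libraries, with no overlap. The means of 81.1 ± 16.4 and 11.2 ± 4.05 CPM (SD, n = 3 each) made it 7.26-fold lower in Aged cells, a log2 difference of -2.80 ± 0.22 (SE). Mndal stood at 1.76 to 2.11 times Ifi203 in the Young libraries and at 4.81 to 7.35 times in the Aged ones, so the balance between these neighbours also differed between the groups.

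Ifi209 (ENSMUSG00000043263, 173630917 to 173647928, plus strand) was measured at 120, 133 and 97.6 CPM in the Young and 36.9, 25.7 and 29.6 CPM in the Aged libraries. Its near-identical copy Ifi214 (ENSMUSG00000070501, 173519717 to 173535957, minus strand) was measured at 27.8, 30.2 and 26.5 CPM and at 13.3, 10.4 and 7.53 CPM. Neither gene's groups overlapped. The last 300 bases of their transcripts, the part that a 3′ library reads, were 98.3% identical, so reads may have been split between them or lost, and each single value is uncertain.

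Mean levels of Ifi209 were 117 ± 17.9 and 30.7 ± 5.67 CPM (SD, n = 3 each), 3.8-fold lower in Aged cells (log2 difference -1.90 ± 0.14, SE). Ifi214 went from 28.2 ± 1.84 to 10.4 ± 2.89 CPM, 2.71-fold lower (-1.39 ± 0.21, SE). Their sum, which does not depend on how reads were divided between them, was 147, 163 and 124 CPM in the Young and 50.2, 36.0 and 37.2 CPM in the Aged libraries, 3.52-fold lower. Ifi209 over Ifi214 ran from 3.68 to 4.42 in the Young and from 2.48 to 3.94 in the Aged libraries, so these ranges overlapped.

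Ifi208 (ENSMUSG00000066677, 173673675 to 173698395, plus strand) and Ifi213 (ENSMUSG00000073491, 173566283 to 173599274, minus strand) form the other close pair, with transcript ends that were 96.9% identical. Ifi208 was at 37.4, 42.0 and 43.0 CPM in the Young and 11.3, 7.67 and 8.0 CPM in the Aged libraries, the means being 40.8 ± 3.01 and 8.98 ± 1.99 CPM (SD, n = 3 each). It was 4.55-fold lower in Aged cells (log2 difference -2.08 ± 0.19, SE). Ifi213 was at 11.3, 8.26 and 5.76 CPM and at 2.05, 0 and 1.88 CPM, so that its Aged libraries sat near the limit of a library. The means were 8.44 ± 2.77 and 1.31 ± 1.14 CPM (SD, n = 3 each), with a log2 difference of -2.15 ± 0.43 (SE).

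For Ifi213 the pooled reads were 64 in Young and 8 in Aged cells, a Young over Aged ratio of 6.96 after scaling to the library totals, with an exact 95% interval of 3.33 to 16.8 that covers counting error only. The sum of the pair was 48.7, 50.3 and 48.8 CPM in the Young and 13.3, 7.67 and 9.88 CPM in the Aged libraries, 4.79-fold lower. Its Young values were the closest together of the 4 sums computed here, with an SD of 0.872 CPM on a mean of 49.2 CPM.

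Ifi206 (ENSMUSG00000037849, 173468485 to 173491041, minus strand) lies next to Aim2 and resembles Ifi208 and Ifi213 in its promoter. It was measured at 40.4, 54.2 and 44.2 CPM in the Young and 13.8, 8.05 and 13.2 CPM in the Aged libraries, without overlap. The means were 46.3 ± 7.12 and 11.7 ± 3.16 CPM (SD, n = 3 each), 3.96-fold lower in Aged cells (log2 difference -1.92 ± 0.20, SE). Its transcript end was 94.3% identical to the pseudogene Gm18752, which lies inside the locus and has no value in the files.

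Ifi204 (ENSMUSG00000073489, 173747293 to 173766943, minus strand) encodes p204, which is known to bind the retinoblastoma protein and the ribosomal RNA transcription factor UBF. It was low in all libraries, at 5.65, 7.90 and 6.53 CPM in the Young and 0, 1.15 and 0 CPM in the Aged ones. The log2 difference of -2.57 ± 0.41 (SE) depends on the pseudocount at such levels. Pooled, it had 52 reads in Young and 3 in Aged cells, a Young over Aged ratio of 15.1 after the same scaling, with an exact 95% interval of 4.88 to 75.5 for counting error. Its neighbour Ifi207 (ENSMUSG00000073490, 173723427 to 173741747, minus strand) had 1 read in Young replicate 1 and none elsewhere, so no fold is given. The ends of these 2 transcripts were 88.1% identical.

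In the fit over all genes 9 of the 10 members were tested and Ifi207 was too low. Among the 9 tested, 8 were called lower and 0 higher, beside 12.5% and 16.2% of all tested genes. The groups of the same 8 did not overlap, with Aged below Young, beside 18.3% of all tested genes. The members were chosen for this difference and Ifi204 and Ifi213 passed the filter mainly through their Young values, so nothing is read from these counts.

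**Figure D2:**
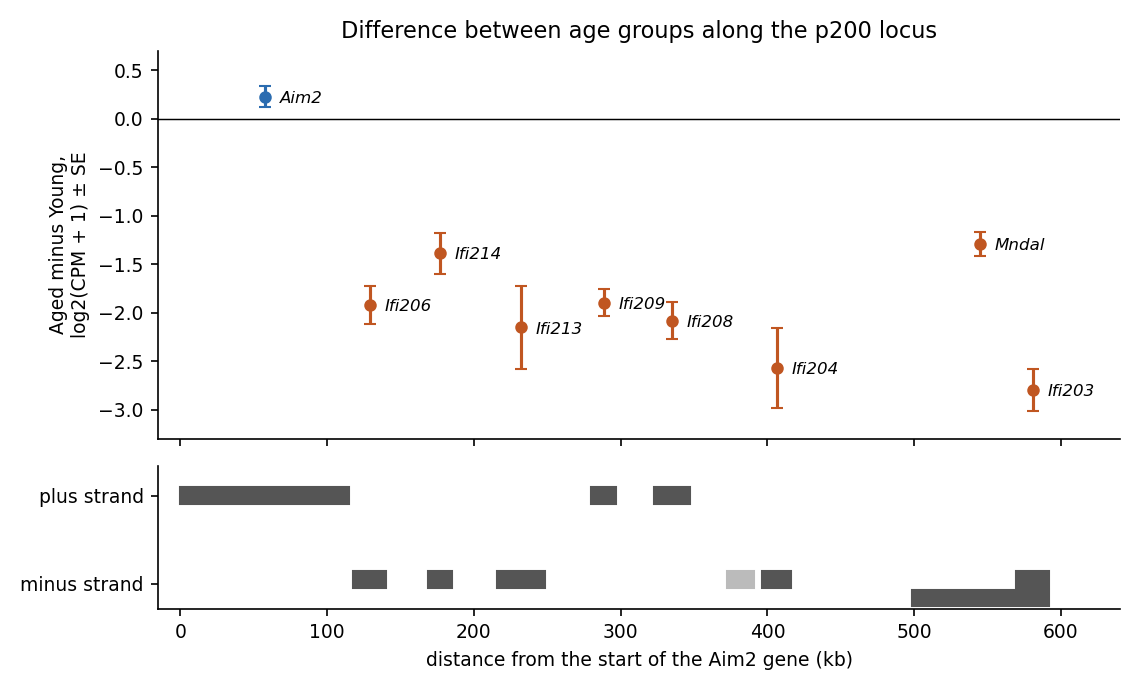
The upper panel plots Aged minus Young, log2(CPM + 1) with its SE, for the 9 tested members at their place in the locus, as distance in kb from the start of Aim2, and the lower panel draws each gene by strand, with the untested Ifi207 in light grey. Aim2 at the left end stands at 0.23 and the 8 others between -1.29 (Mndal) and -2.80 (Ifi203), on both strands.

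Summed over the 10 members, the level was 566, 597 and 492 CPM in the Young and 237, 186 and 240 CPM in the Aged libraries. The means were 552 ± 53.6 and 221 ± 30.4 CPM (SD, n = 3 each), 2.49-fold lower in Aged cells. Without Aim2 the sum of the other 9 was 479 ± 56.8 and 136 ± 26.0 CPM (SD, n = 3 each), 3.52-fold lower. Every Young library was above every Aged library in both sums.

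The make-up of the sum differed as well. Aim2 made up 13.2% ± 1.93 (SD, n = 3) of it in Young and 38.7% ± 4.66 (SD, n = 3) in Aged cells. Mndal kept a like share, 27.3% ± 0.817 and 27.7% ± 1.76. Ifi203 went from 14.6% ± 1.71 to 4.94% ± 1.26, and Ifi209 from 21.1% ± 1.25 to 13.9% ± 1.61. Mndal was at 1.75 to 2.38 times the level of Aim2 in the Young libraries and at 0.607 to 0.839 times in the Aged ones, so their order was turned round in every library.

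**Figure D3:**
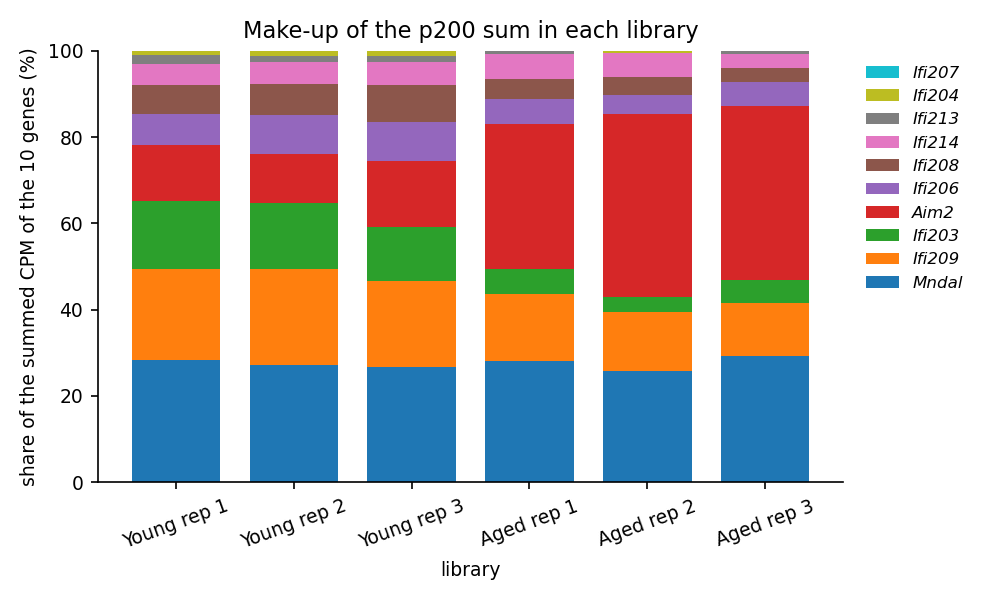
Stacked bars give the share of each member in the summed CPM of the 10 genes, in percent, for each library. Aim2 holds 11.4% to 15.2% of the bar in the Young and 33.5% to 42.4% in the Aged libraries, while the share of Mndal stays between 25.7% and 29.2%.

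In Young cells the order of mean levels was Mndal, Ifi209, Ifi203, Aim2, Ifi206, Ifi208, Ifi214, Ifi213, Ifi204 and Ifi207. The ranges of Mndal and Ifi209 overlapped, as did those of Ifi203 and Aim2, of Ifi206 and Ifi208, and of Ifi213 and Ifi204. In Aged cells Aim2 stood first, above Mndal and Ifi209 without overlap. Ifi206, Ifi203, Ifi214 and Ifi208 followed with overlapping ranges, and Ifi213, Ifi204 and Ifi207 were at or near 0.

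Within a group the members also differed between libraries. Among the 7 with reads in all libraries, Aged replicate 2 was the lowest Aged library in 6 and Aged replicate 1 the highest in 5. Young replicate 2 was the highest Young library in 5 and Young replicate 3 the lowest in 4. The coefficient of variation over 3 libraries was 5.30% to 20.2% in Young and 12.1% to 36.2% in Aged cells, in both groups smallest for Aim2 and largest for Ifi203. The members' differences kept their direction when any 1 of the libraries was left out.

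Across the 6 libraries, the likeness of 2 genes was taken as the root mean square difference of log2(CPM + 1) values, each centred on its own mean. Ifi206 and Ifi209 were the most alike of these 7 members at 0.178, then Ifi209 and Ifi208 at 0.192 and Ifi206 and Ifi208 at 0.215. Aim2 stood apart from the others at 0.783 to 1.55. Among 7269 other genes that averaged 10 CPM or more, those most like the sum of the 10 members were Bnip3l (0.078), Tpcn1 (0.0937), Clybl (0.0945), Ms4a4b (0.101) and Crebrf (0.116). Bnip3l, a receptor for the removal of mitochondria, averaged 221 ± 9.03 CPM in the Young libraries and 84.3 ± 7.0 CPM in the Aged libraries (SD, n = 3 each). The measure mostly follows the difference between the age groups, which all the points share.

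Other genes of the locus had few reads. Ifi211, a p200 gene inside the annotated span of Mndal, had 0.640 ± 0.180 CPM (SD, n = 3) in Young cells and had no read in Aged ones, and Ifi202b and Ifi205 had no read in any library. The transcript end of Mndal was 92.9% identical to that of Ifi205. Within 1000 kb on each side, 44 of 62 annotated genes had a value, 38 of them at 0 in all libraries, and 4 could be tested. None of the 4 was called lower, and Tagln2, an actin-binding protein, was called higher, at 1171 ± 89.4 and 1328 ± 54.9 CPM (SD, n = 3 each), a log2 difference of 0.18 with a limma adjusted p of 0.0244. All 4 lay on the Aim2 side of the locus, between 172376546 and 172632962, and no flanking gene beyond Ifi203 could be tested. So these values describe a few genes at some distance on 1 side and do not show where the lower level ends.

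Genes outside the locus that hold the promoter core were compared next, since this uses no member. Of 315 tested non-member genes with GAAANNGAAA in the promoter, 65 (20.6%) were called lower and 52 (16.5%) higher, and their median log2 difference was -0.04. Of all 8346 tested non-member genes with a promoter in the table, 12.2% were called lower and 16.2% higher, with a median of 0.03. The share called lower was larger among genes with the core and the share called higher was about the same, with no test made of either. Some of these genes are counted again in the interferon lists below, so the counts are not separate results.

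The full decamer stood in 9 other genes, of which 5 were tested, and 4 of these were called lower in Aged cells. They were Pnrc1, a nuclear receptor coactivator (146 ± 9.64 and 61.8 ± 6.04 CPM, limma adjusted p 4.64e-08), Serpinb6a, a protease inhibitor (150 ± 8.25 and 92.7 ± 11.6 CPM, 2.51e-05), Ddx58, which encodes the RNA sensor RIG-I (72.9 ± 1.61 and 53.1 ± 4.79 CPM, 0.00399), and Parp11 (12.4 ± 1.46 and 6.81 ± 2.27 CPM, 0.0270). Ripk1, a kinase of cell death signalling, was at 78.0 ± 5.25 and 75.3 ± 5.19 CPM, with an adjusted p of 0.768. These 5 were named after their values were seen, and Ddx58 and Parp11 also belong to the list of type I interferon-stimulated genes below.

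The inflammasome list holds the partners of AIM2 together with other sensors and genes of cell death, so its counts do not describe those partners alone. Of 15 tested genes, 2 were called lower and 0 higher, beside 12.5% and 16.2% of all tested genes, so the count called lower was near the background. The median log2 difference was -0.06 beside 0.03 for all tested genes. Pycard, which encodes the ASC adaptor, fell from 88.6 ± 9.31 to 35.9 ± 1.52 CPM (SD, n = 3 each), a log2 difference of -1.27 ± 0.12 (SE) with a limma adjusted p of 1.75e-07. Nlrp6, another sensor, fell from 8.97 ± 2.57 to 2.19 ± 0.971 CPM (adjusted p 0.00103). Casp8, the most abundant gene of the list, was at 162 ± 8.24 and 176 ± 4.51 CPM (adjusted p 0.267).

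Caspase-1, the protease recruited by AIM2 through ASC, and its target gasdermin D were named after their values were seen. Casp1 was at 19.7 ± 3.21 and 23.1 ± 6.24 CPM (SD, n = 3 each) and Gsdmd at 7.49 ± 1.51 and 7.30 ± 2.41 CPM, and in both genes the groups overlapped. Il1b, whose product caspase-1 matures, had no read in any library.

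Among 34 tested genes of cytosolic DNA sensing, 14 were called higher and 4 lower, beside 16.2% and 12.5% of all tested genes. The count called lower was near the background. The list had a median log2 difference of 0.26. Samhd1, which breaks down the nucleotides needed for DNA synthesis, had the smallest p and fell from 193 ± 6.56 to 61.5 ± 12.4 CPM (SD, n = 3 each; log2 difference -1.65 ± 0.12, SE; limma adjusted p 9.55e-09). The other 3 called lower, named after their values were seen, were Ikbke (13.0 ± 1.91 and 5.89 ± 0.679 CPM), Tmem173, which encodes STING (106 ± 16.0 and 80.0 ± 4.54 CPM), and Trim56 (79.3 ± 8.29 and 60.7 ± 4.24 CPM). Cgas, a DNA sensor also named after its values were seen, was among the 14 called higher (13.5 ± 1.12 and 24.7 ± 1.85 CPM). Banf1, which coats DNA and competes with DNA sensors, rose from 200.1 ± 8.91 to 306 ± 4.75 CPM (0.61 ± 0.07, SE; adjusted p 2.26e-06). Polr3d, a subunit of RNA polymerase III, rose from 21.5 ± 2.13 to 41.4 ± 4.23 CPM (adjusted p 1.34e-04), and Rad50, a DNA repair protein, from 170 ± 15.2 to 227 ± 7.61 CPM (adjusted p 5.87e-04). With DESeq2 in place of limma 6 of the list were called higher, and 2 were called lower without Aged replicate 1.

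Interferon receptors and signalling genes stood mostly on the lower side, with a median of -0.28. Of 27 tested genes, 11 were called lower and 3 higher, beside 12.5% and 16.2% of all tested genes. Ifngr1, a chain of the interferon-γ receptor, fell from 311 ± 11.9 to 183 ± 7.79 CPM (SD, n = 3 each; log2 difference -0.77 ± 0.07, SE; limma adjusted p 2.13e-07), and Ifnar2, a chain of the type I interferon receptor, from 64.1 ± 7.41 to 32.5 ± 3.36 CPM (adjusted p 1.90e-05).

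Irf8, a transcription factor of the interferon regulatory family, rose from 90.9 ± 12.9 to 162 ± 1.66 CPM (limma adjusted p 3.79e-06). The 2 others called higher, named after their values were seen, were Socs1 and Socs3, which inhibit cytokine signalling (99.9 ± 24.0 and 148 ± 22.7 CPM, and 26.8 ± 2.96 and 41.8 ± 8.93 CPM). Jak1, the most abundant of the list, was at 633 ± 14.9 and 558 ± 60.4 CPM and not called (adjusted p 0.0518), but it was called lower in 10 of 16 alternative settings. Interferon genes themselves were nearly absent: 10 of 12 had no read in any library, and Ifng, the only one tested, was at 1.93 ± 1.73 and 3.19 ± 1.32 CPM with overlapping groups.

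Type I interferon-stimulated genes outside the locus had a median log2 difference of -0.38. Of 70 tested genes, 29 were called lower and 1 higher, beside 12.5% and 16.2% of all tested genes. Ifi27l2a fell from 29.9 ± 2.71 to 5.34 ± 1.60 CPM (SD, n = 3 each; -2.31 ± 0.23, SE; limma adjusted p 4.54e-07). Epsti1 fell from 582 ± 32.9 to 354 ± 26.5 CPM (adjusted p 2.78e-07) and Dtx3l, a ubiquitin ligase, from 186 ± 6.86 to 104 ± 14.4 CPM (adjusted p 2.14e-06). Ifitm1, the most abundant, fell from 3621 ± 30.1 to 3055 ± 143 CPM, a log2 difference of -0.25 (adjusted p 5.09e-04). The 1 gene called higher was Pnpt1, a mitochondrial ribonuclease (9.31 ± 0.932 and 15.5 ± 2.38 CPM), named after its values were seen, and this call was lost in several settings. The promoter core stood in 29 of 67 of these genes with a promoter in the table, in 5 of 12 interferon genes, nearly all without a read, in 3 of 24 signalling genes, and in 0 of 21 inflammasome and 0 of 27 DNA sensing genes.

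**Figure D4:**
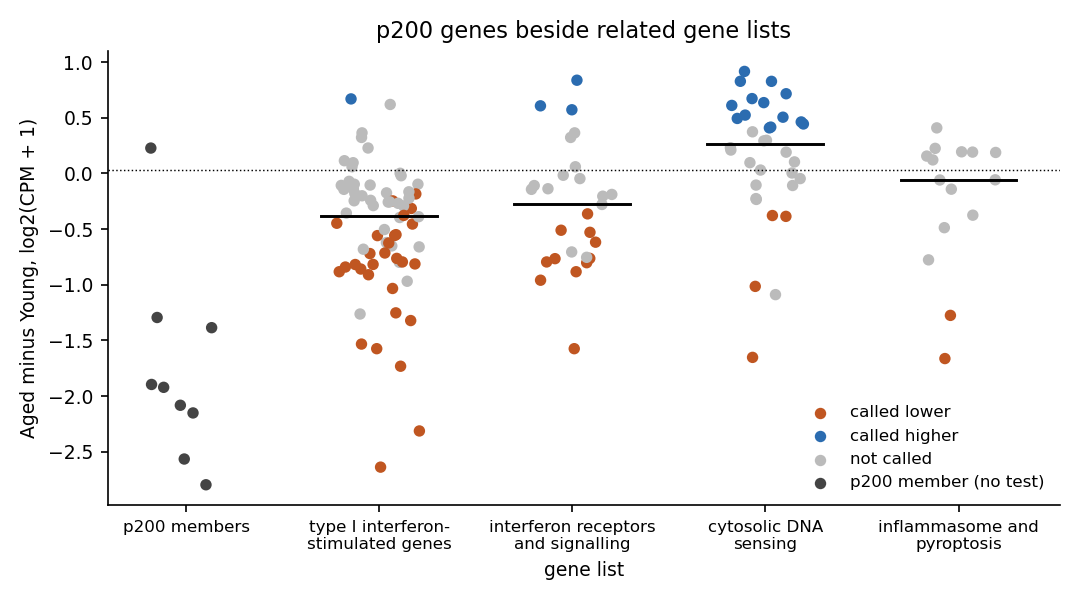
Each point is a tested gene, placed by its Aged minus Young difference on the log2(CPM + 1) scale, for the p200 members (no test), and for 4 lists, with a bar at each list's median and a dotted line at the median of all tested genes (0.03). The medians are -0.38 for type I interferon-stimulated genes, -0.28 for interferon receptors and signalling, 0.26 for cytosolic DNA sensing and -0.06 for the inflammasome list, and 8 of the 9 p200 genes lie below -1.

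The GTPases induced by interferon-γ, GBPs and IRGs, which attack vacuoles of pathogens, had a median of -0.72. Of 17 tested genes, 12 were called lower and 0 higher, beside 12.5% and 16.2% of all tested genes. Gbp2 fell from 87.0 ± 7.25 to 26.0 ± 4.55 CPM (SD, n = 3 each; log2 difference -1.71 ± 0.14, SE; limma adjusted p 3.30e-08) and Gbp7 from 377 ± 30.1 to 228 ± 18.0 CPM (adjusted p 1.16e-06). Iigp1 fell from 43.4 ± 6.09 to 16.6 ± 6.46 CPM (adjusted p 5.74e-05) and Gbp5 from 16.4 ± 3.11 to 4.35 ± 2.44 CPM (adjusted p 1.85e-04). Gvin1, the most abundant, was called lower at 707 ± 189 and 386 ± 149 CPM (adjusted p 0.00200) with overlapping groups, and the call was lost with DESeq2. The core stood in 10 of 11 of them with a promoter in the table.

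Proteins that p200 proteins have been reported to bind, such as cell cycle regulators, were encoded by 21 tested genes, with a median of 0.07. Among them 8 were called higher and 3 lower, beside 16.2% and 12.5% of all tested genes. The count called lower was near the background. The count called higher was 5 with edgeR, 3 with DESeq2, 4 without Aged replicate 2, and 5 without Young replicate 2 or without Aged replicate 3. E2f1, a transcription factor of the entry into S phase, rose from 19.4 ± 2.24 to 38.5 ± 6.12 CPM (SD, n = 3 each; limma adjusted p 2.15e-04), and Ubtf, which encodes UBF, from 92.4 ± 10.1 to 123 ± 12.0 CPM (adjusted p 0.00494). Brca1, a DNA repair protein, rose from 14.6 ± 2.80 to 25.7 ± 2.67 CPM (adjusted p 0.00381). Mdm2, the ubiquitin ligase of p53, fell from 122 ± 5.41 to 79.1 ± 5.04 CPM (adjusted p 4.92e-05). Id2, the most abundant, was called higher at 3313 ± 141 and 3711 ± 126 CPM (adjusted p 0.0138), a call that was lost in 7 of 16 settings.

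Several p200 genes are well expressed in macrophages, B cells and other blood cells, so markers of these cells were read in the same libraries. Of 16 macrophage and monocyte markers, 11 had no read in any library, among them Adgre1, Lyz2, Mertk, C1qa, C1qb and C1qc. Their summed level was 15.0 to 21.7 CPM in Young and 8.19 to 19.8 CPM in Aged libraries, of which Cd68 made up most (14.3 ± 2.93 and 8.28 ± 2.61 CPM, SD, n = 3 each). Of the 3 tested, 2 were called lower and 0 higher, beside 12.5% and 16.2% of all tested genes. They were Cd68, called in 10 of 16 alternative settings, and Itgam, named after its values were seen, in 11 of 15. Of 11 B cell markers 6 had no read, Ms4a1, Cd79a and Pax5 among them, and the sum was 8.26 to 14.2 CPM in Young and 2.56 to 4.24 CPM in Aged libraries. Of the 2 tested, 1 was called lower and 0 higher. It was Cd79b, named after its values were seen and called lower in all 15 alternative settings that tested it. The B cell sum was lower in every Aged library, while the ranges of the macrophage and monocyte sum overlapped.

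Of 10 dendritic cell markers, 5 had no read, Flt3 and Clec9a among them, and the sum was 53.8 to 60.4 CPM in Young and 28.7 to 48.7 CPM in Aged libraries. Xcr1, which CD8 T cells can also express, was called lower at 28.8 ± 6.93 and 9.33 ± 3.09 CPM (SD, n = 3 each; limma adjusted p 6.77e-05). Markers of red cells and platelets summed to 10.4 to 22.3 CPM in Young and 1.15 to 4.71 CPM in Aged libraries, with 5 of 10 at 0, Hbb-bs and Pf4 among them. Of the 3 tested, 1 was called lower and 0 higher, beside 12.5% and 16.2% of all tested genes. It was Hbb-bt, named after its values were seen and called lower in all 15 alternative settings that tested it. The part of these cells in the difference of the p200 genes was not tested.

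Natural killer cell markers, of which 1 of 10 had no read, summed to 1334 to 1411 CPM in Young and 1174 to 1270 CPM in Aged libraries, nearly all from Nkg7, a granule gene that CD8 T cells express too (1261 ± 43.4 and 1106 ± 68.1 CPM, SD, n = 3 each). Of the 7 tested, 2 were called higher and 1, Nkg7, lower, beside 16.2% and 12.5% of all tested genes. Those called higher, named after their values were seen, were Klre1 (3.12 ± 2.07 and 13.1 ± 3.05 CPM, limma adjusted p 6.46e-04), called in all 16 alternative settings, and Fcer1g (50.1 ± 2.32 and 71.9 ± 21.1 CPM, adjusted p 0.0367), called in 7 of 16. The call of Nkg7 was lost without Young replicate 2 and without Aged replicate 1. Markers of CD4 and regulatory T cells summed to 851 to 981 and 724 to 891 CPM, nearly all from Il2ra, the interleukin 2 receptor chain of activated T cells, while Cd4 itself was at 0.248 and 0.128 CPM. Neutrophil markers summed to 82.6 to 102 and 55.1 to 129 CPM, nearly all from Ly6g, with 6 of 10 at 0. Cd8a was at 270 ± 5.69 and 303 ± 52.2 CPM (SD, n = 3 each) and Cd8b1 at 383 ± 21.7 and 304 ± 27.1 CPM.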

How the data were processed

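QuantSeq 3′ mRNA libraries of 6 samples, 3 Young and 3 Aged, were analysed. The authors deposited 1 file per library with CPM values per Ensembl gene, each column summing to 1000000, and their processing notes name GRCm38 (mm10) as the build. Which aligner, counting program, strand setting and annotation were used is not given in the sources used here. Deposited CPM were whole multiples of 1 read for 100% of values within 0.001 reads, so whole reads were recovered, and totals and limits rest on them. One identifier with a blank value was left out, and the file of Aged replicate 2 names its column as replicate 3 and was taken as replicate 2.

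Samples were grouped by the labels. Genes averaging 1 CPM or more were tested on log2(CPM + 1) by limma 3.58.1 (R 4.3.3) with an intensity trend, two-sided, with Benjamini-Hochberg adjustment over all 10511 genes. The procedure was tested on simulated data. Fold changes on that scale are understated for low genes. Replicates within a group differed by more than counting noise (chi-square per degree of freedom 1.72 to 2.9). Reads carry no described molecular identifiers, so limits and intervals cover counting error only. Gene positions come from GENCODE mouse release 21, promoters from RefSeq, and transcript ends were aligned with BLAST 2.17.0.

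The members and all gene lists were chosen with earlier results of these data known. Named genes are all members, the other p200 genes, the 4 genes with the smallest p and the most abundant gene of each pathway list, the most abundant marker of each other cell type, called flanking genes, and the 5 genes most like the members' sum. Alternatives were TMM or RLE scaling, other filters and pseudocounts, a replicate term, count tests on the recovered reads (limma-voom, edgeR 4.0.16 and DESeq2 1.42.0), and leaving out each library. Of the genes that this rule names, 1 is not reported here.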

Additional observations from a re-analysis of the deposited data

How the results depend on the processing

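The 8 p200 genes that were lower in Aged cells and Aim2 kept their direction in every alternative that gave a value, and Aim2 ran from 0.13 to 0.28 on the log2 scale. The sizes of the lowest genes moved: Ifi204 (main value -2.57) was -4.86 with a pseudocount of 0.1, -1.12 with 5, -3.82 with edgeR, -3.99 with DESeq2 and -3.96 with limma-voom. Ifi213 (-2.15) was -3.45 and -1.09 with these pseudocounts and -3.28 with limma-voom, and Ifi208 (-2.08) was -1.72 with a pseudocount of 5. With a filter at a mean of 5 CPM, Ifi204 and Ifi213 gave no value. DESeq2 called 944 genes higher in place of 1701, and 6 in place of 14 of the DNA sensing list. Leaving out 1 library gave 2 to 4 DNA sensing genes called lower, the lowest without Aged replicate 1, and 0 to 2 interferon-stimulated genes called higher, which was 2 without Aged replicate 2 and 0 without Aged replicate 3 or without Young replicate 1 or 3. That count was also 0 with no filter and with DESeq2. The cause of these shifts was not tested.

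Replicate numbers were checked for pairing: deviations of same-numbered libraries correlated across genes at r = 0.0209, 0.00025 and 0.0028. Differently numbered pairs ran from -0.0259 to 0.0242, so same-numbered libraries were no more alike by this measure. Counting noise weakens such correlations, so they cannot decide whether the libraries were paired. With the replicate block the members' calls stayed at 8 lower and 0 higher, and 2 interferon-stimulated genes were called higher in place of 1. Depth limits the lowest genes: Ifi204, Ifi207 and Ifi211 lay at or under the 3-read limit in every Aged library, and Ifi213 had 8 reads over the 3 Aged libraries.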
